A study of Mus musculus with 5 samples.

Results

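Translation initiation and elongation factors are the proteins that bring ribosomes to messenger RNAs and move them along the coding sequence. Their genes were taken from the array by symbol: every gene with a probe set of exactly 1 symbol that begins with Eif1 to Eif6 or with Eef1 or Eef2, leaving out the Eif4ebp inhibitors and the Eif2ak kinases. The rule used no measured value, and it found 52 of the 18194 genes on the array, read by 134 probe sets. All 52 passed the filter on dim probe sets, which kept 12082 genes. The cells were splenic germinal centre B cells, sorted from littermate mice of the C57BL/6 background aged 12 weeks, 7 days after they received sheep red blood cells (SRBC) as antigen. The 3 arrays labelled WT came from eGFP-negative cells of Cg1-Cre mice. The 2 arrays labelled REL came from eGFP-positive cells of relfl/flCg1-Cre mice, which are homozygous for a loxP-flanked Rel gene. Rel encodes c-Rel, a DNA-binding subunit of NF-kB. Both groups carry Cg1-Cre, which expresses the recombinase from the immunoglobulin gamma 1 locus and therefore acts in activated B cells and not in the germ line. Genotype and eGFP gate differed together and cannot be told apart. Nothing in the labels ties an array to its own animal. The p-values therefore reflect spread among these samples alone, and that spread may be technical.

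Initiation begins when eIF2, loaded with GTP and the initiator tRNA, joins the small ribosomal subunit together with eIF1, eIF1A, eIF3 and eIF5. The eIF4 proteins bind the messenger RNA cap and unwind its leader, eIF5B joins the large subunit, and eIF2B recharges eIF2 for the next round. During elongation eEF1A delivers aminoacyl-tRNAs, the eEF1B subunits recharge it, eEF2 moves the ribosome by a codon and eIF5A relieves stalls. Germinal centre B cells grow and divide fast, and protein synthesis is one of the processes that growth signals through Myc and mTORC1 are known to raise in them.

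The 2% trimmed mean of the signals was 500 on every array, and the median signal over all probe sets ran from 30.1 to 54.6. Rel itself, with 1 probe set, gave 492, 134 and 206 in WT against 18.6 and 85.2 in REL, so the groups did not overlap. Its difference was −2.12 in units of log2(signal + 16), REL minus WT (SE 0.73, limma adjusted p = 0.46), the unit of every difference given here. Markers of B cells were present on every array. Of 7 general B cell markers 6 were measured, with a median difference of −0.01, and of 11 germinal centre markers 8 were measured, with a median of −0.12. Of 17 listed macrophage and monocyte markers 13 were measured, and in 11 of them both REL signals exceeded all 3 WT signals. Their summed signal was 1305 to 2436 in WT against 8474 and 7221 in REL, with Vcam1 at 2.46 or less on all WT arrays, while Adgre1 was lower on both REL arrays. Markers of other cell types went in different directions. Both measured erythroid markers of 6 listed were lower in REL without overlap (median −1.55). The 3 measured of 7 neutrophil markers had a median of −1.65 with overlapping arrays, 2 below 0 and 1 above. The 3 measured of 9 T cell markers had a median of 0.17, also with overlap. Among plasma cell markers Sdc1 was at −1.96 with REL under WT, and Xbp1 at 0.49 with REL over WT, each without overlap. The median over 5 plasma cell markers was −0.03. The middle probe set of the small subunit ribosomal RNA read 9822, 8696 and 9154 in WT against 11953 and 13417 in REL. Its 5′ probe set read 858, 536 and 293 in WT against 1671 and 1984 in REL. The 3′ probe set read 746, 718 and 904 in WT against 1194 and 1098 in REL. The part of these markers and of ribosomal RNA in the values that follow was not tested. The number of arrays limits the precision. In sorted populations, fewer cells with a transcript and less of it per cell cannot be told apart.

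No translation factor gene passed the threshold of a limma adjusted p under 0.05, and their adjusted p values ran from 0.479 to 0.995. Over all genes 0.00828% passed, a single gene. The median difference, REL minus WT, was −0.18 over the 52 factor genes and −0.07 over all genes tested. The difference was below 0 in 40 of the 52 genes, which is 76.9%, against 56.8% of all genes. At an unadjusted p under 0.05, 7 factor genes were lower and 0 higher. They make up 13.5% of the factor genes, where the background over all genes was 4.99% lower and 3.24% higher. Both REL signals were under all 3 WT signals in 15 factor genes (28.8%, background 14.3%) and over them in 1 (1.92%, background 9.53%). Without REL replicate 1 the median was −0.08 against −0.10 over all genes, and 1 factor gene was lower at an unadjusted p under 0.05, where the background was 7.26%. Without REL replicate 2 the median was −0.24 and 9 genes were lower, with a background of 6.51%. With each array centred on its median signal the median over factor genes was −0.04 and over all genes 0.07. In that setting 0 factor genes had an unadjusted p under 0.05 in either direction (background 2.73% lower and 3.91% higher). Factor genes were measured with smaller errors than most genes. Their median standard error was 0.20 on the log2 scale, against 0.48 over all genes tested, and 76.9% of them had a mean WT signal over 1000, against 37.1% of all genes.

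**Figure D1:**
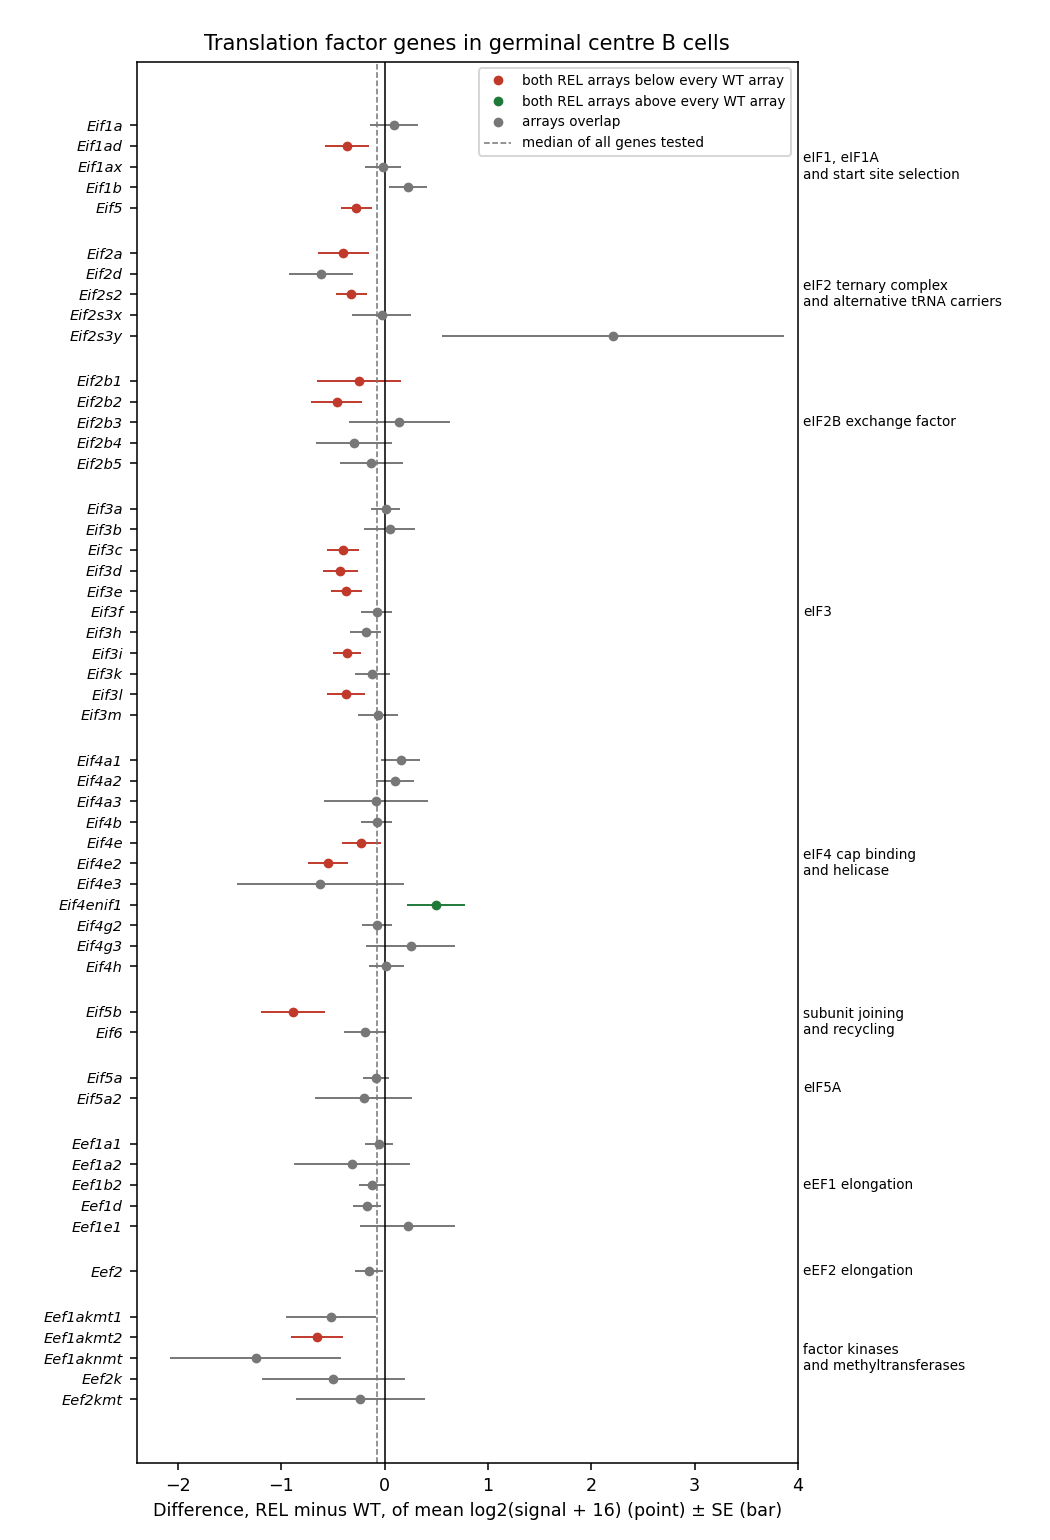
Difference between REL and WT for the 52 translation factor genes, grouped by complex. The horizontal axis is the difference of mean log2(signal + 16), REL (n = 2) minus WT (n = 3), each point is 1 gene and each bar its limma standard error. The colours mark the 15 genes with REL under WT and no overlap, the 1 gene with REL over WT and no overlap, and the genes whose arrays overlap. The dashed line is the median of all genes tested (−0.07), and 40 of the 52 points lie below 0.

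The scaffold factor eIF3, which holds the small subunit and recruits the messenger RNA, held 4 of the 7 genes lower at an unadjusted p under 0.05. These 4 are 36.4% of its 11 measured subunit genes (background 4.99%). Of the 11 genes 9 had a difference below 0 (background 56.8%), and in 5 both REL signals were under all 3 WT signals (background 14.3%). The median over the 11 was −0.18, and none passed over all genes (limma adjusted p 0.494 and above). Under quantile normalization the median was −0.08, against −0.03 over all genes. With median-centred arrays it was −0.05, against 0.07 over all genes. Median centring shifts all genes of an array by the same amount. The eIF3 median minus that of all genes was therefore −0.11 both with and without it. None of the 4 genes kept an unadjusted p under 0.05 without REL replicate 1 or with median-centred arrays.

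Within the octamer of eIF3, the ring of subunits that forms its body, Eif3c had signals of 6260, 6342 and 7296 in WT against 4846 and 5159 in REL. The REL arrays lay below the WT arrays, at a difference of −0.40 (SE 0.16, limma adjusted p = 0.528). Of its other 3 probe sets above the floor, 2 showed the same separation (−0.35 and −0.33) and 1 the opposite one, with signals of 949 to 1456 in WT against 1848 and 2476 in REL (0.77). With the mean of its probe sets Eif3c was at −0.08. Eif3e, which is also part of the octamer, had signals of 8788, 10877 and 11208 in WT against 7670 and 8173 in REL. Its difference was −0.37 (SE 0.15, limma adjusted p = 0.549), and its other 2 probe sets above the floor gave −0.26 and −0.40, each without overlap between the groups. Eif3l had signals of 4179, 4387 and 4606 in WT against 3046 and 3748 in REL, again without overlap (−0.38, SE 0.18), while its other 2 probe sets above the floor overlapped and gave −0.07 and 0.20. The other 5 octamer genes had overlapping arrays for the probe set used. Eif3h, the eIF3 gene of highest mean signal, gave 11172, 13818 and 12525 in WT against 9685 and 12429 in REL (−0.18, SE 0.15). Eif3k was at −0.12, Eif3f at −0.08, Eif3m at −0.06 and Eif3a, which encodes the largest subunit, at 0.01. The 95% interval of Eif3a was −0.30 to 0.32 for the probe set used, so a change of either sign within those limits was not detectable. A dimmer Eif3a probe set had REL over WT without overlap, with 489, 428 and 661 in WT against 844 and 860 in REL (0.70). Its remaining ones gave 0.15 and 0.02 with overlap.

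In the peripheral module that reaches around the messenger RNA channel, the 2 measured genes differed from each other. Eif3i had signals of 10330, 11810 and 12801 in WT against 8745 and 9248 in REL. The groups did not overlap, the difference was −0.37 (SE 0.14, limma adjusted p = 0.494), and its other probe set gave −0.37 with overlapping arrays. Eif3b had signals of 2315, 1678 and 1860 in WT against 1887 and 2123 in REL, which overlapped (0.05, SE 0.25). Eif3d, the subunit that can itself bind the cap of some messenger RNAs, had the narrowest groups. Its signals were 4517, 4488 and 4455 in WT against 3341 and 3319 in REL, a difference of −0.43 (SE 0.17, limma adjusted p = 0.544). It stayed between −0.43 and −0.42 when each array was left out in turn. Its other probe set, near the floor at signals of 29.7 to 47.8, gave 0.06.

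**Figure D2:**
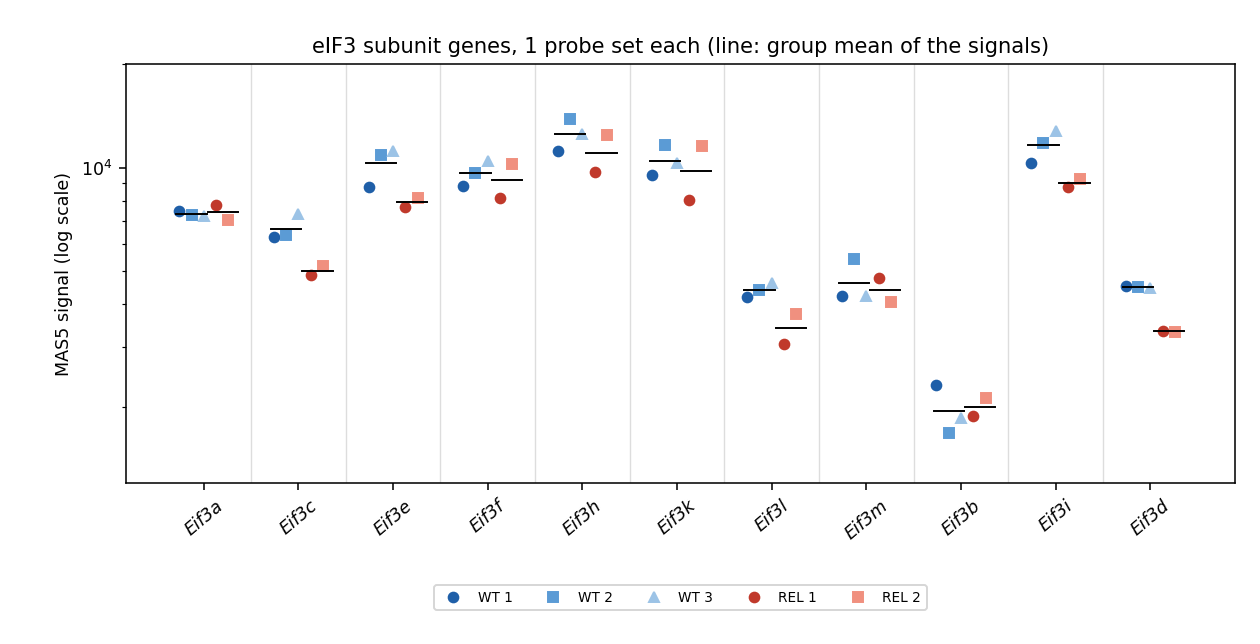
MAS5 signal of the 11 measured eIF3 subunit genes on each array, on a log axis, for WT 1 to 3 (blue) and REL 1 and 2 (red). The black lines are group means of the signals. The REL points lie below all WT points for Eif3c, Eif3e, Eif3l, Eif3i and Eif3d and mix with them for the other 6 genes.

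The regions in front of the 7 genes lower at an unadjusted p under 0.05 were looked up because Rel encodes a DNA-binding factor. Of the 52 factor genes 42 had a promoter in the RefSeq table (build GRCm38.p6), and 5 of the 7 were among them, Eif3e and Eif3i not. The 250 bases before the first listed start of Eif3c (chr7:126566367-126566616, minus strand), Eif3d (chr15:77970825-77971074, minus strand), the joining factor gene Eif5b (chr1:37997760-37998009, plus strand), Eif4e2 (chr1:87213661-87213910, plus strand) and Eef1akmt2 (chr7:132852648-132852897, minus strand) read 5′ to 3′, with matches to the 4 motifs searched in capitals:
Eif3c: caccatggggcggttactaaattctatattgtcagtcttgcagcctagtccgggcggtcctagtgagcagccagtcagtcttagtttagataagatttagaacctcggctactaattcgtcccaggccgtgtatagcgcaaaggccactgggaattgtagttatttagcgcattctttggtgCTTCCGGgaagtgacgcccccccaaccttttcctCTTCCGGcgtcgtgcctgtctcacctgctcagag
Eif3d: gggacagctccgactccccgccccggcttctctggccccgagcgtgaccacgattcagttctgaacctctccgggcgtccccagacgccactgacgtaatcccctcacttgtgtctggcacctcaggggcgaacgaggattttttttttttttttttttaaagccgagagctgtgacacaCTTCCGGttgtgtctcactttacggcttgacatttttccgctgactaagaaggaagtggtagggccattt
Eif5b: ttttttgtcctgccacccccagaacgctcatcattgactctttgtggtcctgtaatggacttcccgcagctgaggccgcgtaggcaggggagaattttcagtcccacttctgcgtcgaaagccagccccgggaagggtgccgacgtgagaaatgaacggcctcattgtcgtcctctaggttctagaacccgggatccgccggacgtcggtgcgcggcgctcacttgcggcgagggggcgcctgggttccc
Eif4e2: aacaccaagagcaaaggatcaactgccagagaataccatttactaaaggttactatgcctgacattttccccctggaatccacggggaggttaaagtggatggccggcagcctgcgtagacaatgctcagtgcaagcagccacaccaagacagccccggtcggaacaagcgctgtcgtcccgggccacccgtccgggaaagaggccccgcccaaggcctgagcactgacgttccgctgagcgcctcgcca
Eef1akmt2: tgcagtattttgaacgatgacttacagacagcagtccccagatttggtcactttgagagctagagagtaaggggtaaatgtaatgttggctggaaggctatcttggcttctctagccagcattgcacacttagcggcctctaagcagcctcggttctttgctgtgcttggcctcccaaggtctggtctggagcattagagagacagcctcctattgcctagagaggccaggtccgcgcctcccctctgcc
The motifs were CCGGAAG, the core of many ETS factor sites, CACGTG, the E-box that Myc and Max bind, CCAAT, the box bound by NF-Y, and the kB consensus of the NF-kB family, each on both strands. CCGGAAG stood 2 times before Eif3c and 1 time before Eif3d, read on the other strand as CTTCCGG, and none of the 4 motifs was found in the windows of Eif5b, Eif4e2 and Eef1akmt2. CCGGAAG was present in 8 of the 42 factor gene windows (19.0%), in 13.9% of the windows of 9789 tested genes and in 7.05% of all 27025 windows. CACGTG was present in 9 of 42 (21.4%), in 8.30% of tested genes and 6.05% of all, among them the windows of Eef2, Eif4a1, Eif3f and Eif3k. CCAAT was present in 11 of 42 (26.2%), in 36.4% of tested genes and 34.5% of all. The kB consensus was present in 1 of 42 (2.38%), that of Eef1a1, in 4.30% of tested genes and in 3.75% of all. A match describes letters and not a bound site. CCGGAAG was the one motif found in the windows shown, so no motifs overlapped there.

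The genes of eIF2 and of other initiator tRNA carriers had a median of −0.32 over 5 members, 4 of them below 0. Eif2s2, the gene for the beta subunit that eIF5 and eIF2B dock on, had signals of 7222, 7541 and 6806 in WT against 5337 and 6173 in REL. The groups did not overlap (−0.32, SE 0.15, limma adjusted p = 0.629). Of its other 5 probe sets above the floor, the brightest overlapped, with 5774, 6260 and 5928 in WT against 6934 and 5621 in REL (0.06). Another moved far the other way, with signals of 309 to 507 in WT against 6260 and 555 in REL. The remaining ones gave −0.22 without overlap, and −0.32 and −0.02 with it. The mean of all 6 probe sets gave 0.25. Eif2a, which encodes an alternative carrier separate from eIF2 itself, had signals of 1805, 1969 and 2371 in WT against 1568 and 1512 in REL, without overlap (−0.40, SE 0.25). Its other probe set above the floor overlapped, with 1267, 1750 and 1886 in WT against 1706 and 905 in REL (−0.37). Eif2d, another alternative carrier, was at −0.61 (SE 0.31), with overlapping signals of 2412, 4588 and 4008 in WT against 1797 and 2962 in REL. Its other 5 probe sets above the floor gave −0.32 to 0.33 and the mean of all 6 gave −0.18. Leaving out REL replicate 1 gave −0.26 and leaving out REL replicate 2 gave −0.97.

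The gamma subunit of eIF2, which binds GTP and the initiator tRNA, has an X-linked gene, Eif2s3x, and a Y-linked copy, Eif2s3y. Eif2s3y had signals of 4152, 21.0 and 4668 in WT against 3781 and 4527 in REL. WT replicate 2 stood apart from the other 4 arrays, and the difference was 2.21 (SE 1.66) with that array and −0.09 without it. The same array had 9319 for Xist, the RNA of the inactive X chromosome, where the others had 5.05 to 36.2, and 9.85 for the Y-linked Kdm5d, where the others had 512 to 905. The labels give no sex. Eif2s3x had signals of 4739, 7061 and 3392 in WT against 5509 and 4098 in REL, with its highest value on WT replicate 2, at a difference of −0.03 (SE 0.28) with that array and 0.24 without it. Of its other 2 probe sets above the floor, 1 gave −0.06 with overlap. The other had no overlap, with 460, 1522 and 780 in WT against 197 and 167 in REL (−2.08). The 2 copies are close paralogues, and which transcripts each probe set reads was not tested. Leaving out WT replicate 2 moved the median over all 52 factor genes to −0.14 and left 3 genes lower at an unadjusted p under 0.05, with a background of 3.89%.

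The exchange factor eIF2B, the target through which phosphorylated eIF2 slows initiation, had a median of −0.25 over its 5 subunit genes, 4 of them below 0. Eif2b2, for the beta subunit, had 3 probe sets above the floor, all with REL under WT. The probe set used had signals of 2362, 2462 and 2640 in WT against 1482 and 2178 in REL (−0.46, SE 0.25, limma adjusted p = 0.686). The other 2 had 696 to 785 in WT against 354 and 466 in REL, and 512 to 924 against 244 and 221. None of the 3 probe sets had overlapping groups. For the probe set used, the difference was −0.19 without REL replicate 1 and −0.74 without REL replicate 2. Eif2b1 was lower in both REL arrays by a small margin, with 507 to 560 in WT against 405 and 500 in REL (−0.25, SE 0.41). Eif2b4, for the delta subunit, gave 1056, 799 and 720 in WT against 571 and 826 in REL, which overlapped (−0.30, SE 0.37). Eif2b5 (−0.13) and Eif2b3 (0.14) overlapped as well. The complex median was −0.56 without REL replicate 2 and −0.04 without REL replicate 1.

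The cap and helicase genes of eIF4 lay near 0 as a group, with a median of −0.07 over 11 members, 6 below 0 and 5 above. The helicase genes Eif4a1 and Eif4a2 were at 0.15 (SE 0.19) and 0.10 (SE 0.18). Eif4a1 had signals of 9035, 9526 and 6711 in WT against 8010 and 10731 in REL, and Eif4a2 had 4215, 3497 and 3814 in WT against 4381 and 3848 in REL. Both pairs of groups overlapped. Eif4a3 encodes a helicase of the splicing-linked exon junction complex. Its 1 probe set under the rule was dim, at 36.0, 48.9 and 41.7 in WT against 52.7 and 27.5 in REL (−0.08, SE 0.50). A probe set shared with Gm5576, outside the rule, was bright, at 4482 to 5512 in WT against 4047 and 5141 in REL (−0.16). The helicase partner gene Eif4h gave 8620, 10192 and 9316 in WT against 7966 and 11267 in REL (0.02, SE 0.17), and Eif4b was at −0.08. Of the scaffold genes, Eif4g2 gave 7455, 8282 and 8570 in WT against 7115 and 8337 in REL (−0.07, SE 0.15). Eif4g3 gave 2114, 859 and 2103 in WT against 1342 and 2591 in REL (0.25, SE 0.43). The groups overlapped in each of these genes for the probe set used. Another Eif4g2 probe set had no overlap, with 4411, 4529 and 5033 in WT against 3797 and 4300 in REL (−0.20). Dim Eif4h probe sets without overlap went in opposite directions, at −1.51 and 0.44.

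Among the genes of cap-binding proteins, Eif4e, which encodes the main one, had signals of 3363, 3495 and 3108 in WT against 2798 and 2877 in REL. The groups did not overlap (−0.22, SE 0.19, limma adjusted p = 0.815), and its other 2 probe sets above the floor gave −0.53 without overlap and 0.03 with it. Eif4e2, for the homologue that represses translation of bound messages, had signals of 6820, 7512 and 9318 in WT against 4518 and 6321 in REL. The groups were again apart, at −0.55 (SE 0.20, limma adjusted p = 0.486). Its second probe set in signal, at 3385 to 3936 in WT against 2949 and 4076 in REL, gave −0.05, and the mean of 5 probe sets gave 0.20. Without REL replicate 1 Eif4e2 was at −0.31 and without REL replicate 2 at −0.79. Eif4e3 was read by 2 dim probe sets that disagreed, at −0.62 (SE 0.81) and 1.65. The former had 88.3, 5.89 and 105 in WT against 57.8 and 8.37 in REL. The latter had 7.57 to 31.0 in WT against 183 and 42.0 in REL. Eif4enif1, which encodes the carrier of eIF4E into the nucleus, was the 1 factor gene with both REL signals over all 3 WT signals. Its signals were 1098, 1060 and 1067 in WT against 1373 and 1698 in REL (0.50, SE 0.28, limma adjusted p = 0.702).

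The start site group holds genes of eIF1, eIF1A and eIF5 and also Eif1ad, placed there by its symbol. Whether Eif1ad acts in start site selection was not tested. The group had a median of −0.01 over 5 genes. Eif5, for the GTPase activator of eIF2, had signals of 7923, 7797 and 8594 in WT against 6108 and 7360 in REL. The groups did not overlap (−0.27, SE 0.15), but of its other 4 probe sets above the floor 1 gave −0.46 and 3 gave 0.07 to 0.16. Eif1ad was at −0.36 (SE 0.22) with no overlap, from 3095, 3091 and 2756 in WT against 2026 and 2636 in REL, and its other probe set gave 0.18. Eif1ax, for eIF1A, gave 8098, 10165 and 6970 in WT against 7824 and 8692 in REL (−0.01, SE 0.17). It overlapped, as did Eif1a (0.09) and Eif1b (0.22).

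Eif5b, for the GTPase that joins the ribosomal subunits, had the smallest p of the 52 genes. Its signals were 1975, 1928 and 1566 in WT against 1270 and 748 in REL. REL was under WT on both arrays, on REL replicate 2 by the wider margin, at −0.88 (SE 0.31, limma adjusted p = 0.479). Another probe set gave −0.49 with overlap, and the remaining one gave 0.31, with 414 to 483 in WT against 632 and 484 in REL. The value was −1.26 without REL replicate 1 and −0.51 without REL replicate 2, and −0.35 with the mean of the 3 probe sets. Eif6, which keeps free large subunits apart from small ones, had signals of 3393, 3294 and 3255 in WT against 2576 and 3278 in REL (−0.19, SE 0.20). REL replicate 2 lay within the WT range there.

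**Figure D3:**
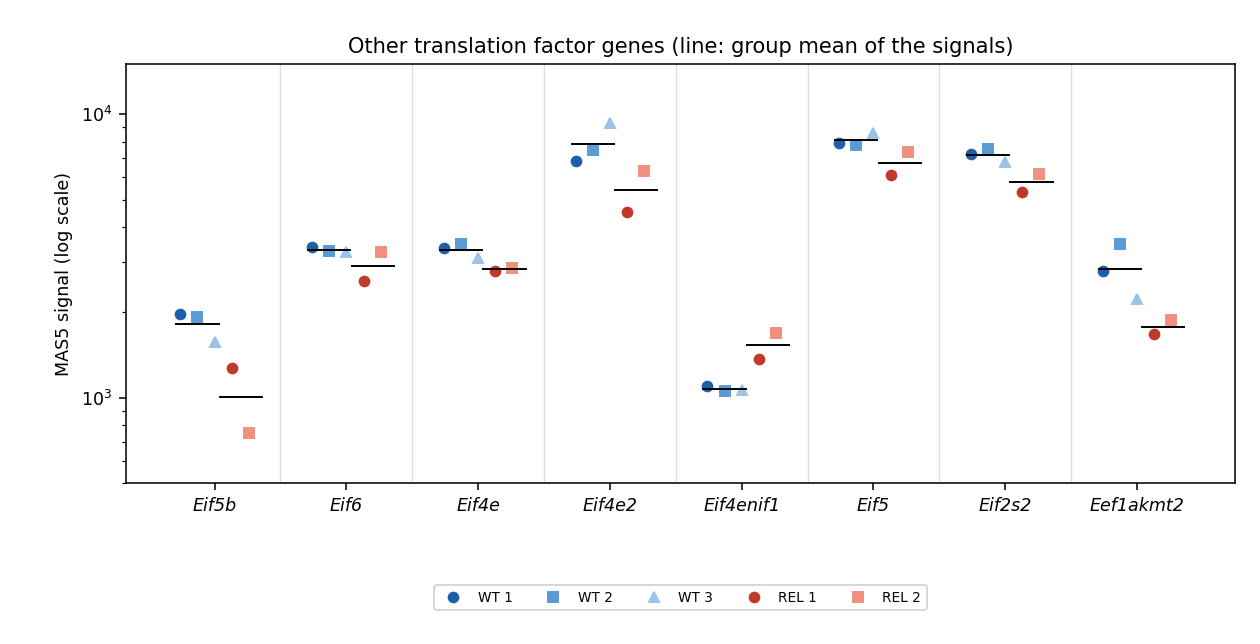
MAS5 signal on each array, on a log axis, of Eif5b, Eif6, Eif4e, Eif4e2, Eif4enif1, Eif5, Eif2s2 and Eef1akmt2, with WT 1 to 3 in blue, REL 1 and 2 in red and group means of the signals as black lines. REL lies below WT without overlap for 6 of these genes, above it for Eif4enif1, and overlaps for Eif6.

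The main elongation factor genes were bright and differed little between the groups, while Eef1a2 and Eef1e1 had larger errors. Eef1a1, for the carrier of aminoacyl-tRNA, had signals of 13371, 16546 and 16288 in WT against 13512 and 16102 in REL, a difference of −0.06 with a 95% interval of −0.36 to 0.25. Eef2, for the translocase, had 8942, 10135 and 10446 in WT against 8508 and 9208 in REL (−0.15, 95% interval −0.45 to 0.15). In both genes REL lay within or close to the WT range. Of the exchange factor genes, Eef1b2 gave 14413, 17531 and 17412 in WT against 14317 and 15801 in REL (−0.12, SE 0.13). Eef1d gave 11988, 13332 and 14020 in WT against 10500 and 12853 in REL (−0.17, SE 0.14), and all 3 probe sets of Eef1d above the floor lay below 0. Eef1e1, for a protein of the aminoacyl-tRNA synthetase complex, was at 0.22 (SE 0.46). Eef1a2, the form of muscle and nerve, was dim, at 113, 171 and 109 in WT against 116 and 87.0 in REL (−0.31, SE 0.56). Eif5a, for the hypusine-bearing factor, had 12961, 15812 and 15379 in WT against 13571 and 14158 in REL (−0.08, 95% interval −0.36 to 0.20), and its relative Eif5a2 gave 951, 648 and 450 in WT against 414 and 770 in REL (−0.20, SE 0.47). None of the 8 genes of elongation and eIF5A had groups without overlap (background 14.3% with REL under WT and 9.53% with REL over WT).

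The symbol rule also took in 5 genes whose products modify the elongation factors, and all 5 had differences below 0, with a median of −0.52. Eef1akmt2, for a lysine methyltransferase of eEF1A, had signals of 2794, 3487 and 2221 in WT against 1672 and 1873 in REL, without overlap. Its difference was −0.65 (SE 0.25, limma adjusted p = 0.526), from 1 probe set. Eef1akmt1 was at −0.52 (SE 0.44) and Eef1aknmt at −1.25 (SE 0.83), the latter from 30.9, 66.5 and 372 in WT against 34.3 and 30.2 in REL, with WT replicate 3 far above the rest. Another dim probe set of Eef1aknmt gave −0.80 with overlap. The remaining one had no overlap, with 87.3, 111 and 96.4 in WT against 15.5 and 5.16 in REL (−2.14). Eef2k, for the kinase that inhibits eEF2, had 895, 667 and 191 in WT against 554 and 209 in REL (−0.49, SE 0.69), and Eef2kmt was at −0.23 (SE 0.63). Without these 5 genes the median over the other 47 was −0.13.

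For single arrays, the deviation of the 52 genes from their WT means had a median of −0.05, 0.03 and 0.01 in WT, −0.24 in REL replicate 1 and −0.08 in REL replicate 2. The REL arrays both lay below the lowest WT array, REL replicate 2 by a margin smaller than the SD of 0.08 between arrays of a group. Over all genes, the median difference from WT was −0.03 with REL replicate 1 as the REL array and −0.09 with REL replicate 2, so on REL replicate 2 the factor genes did not lie under all genes. For eIF3 the values were −0.12, 0.01 and 0.01 in WT and −0.38 and −0.18 in REL. For the eIF4 genes REL replicate 2 was at 0.01, inside the WT values of −0.01 to 0.03, and REL replicate 1 at −0.15. For eEF1 the REL values were −0.18 and −0.03 and for eEF2 −0.21 and −0.09, against a lowest WT array at −0.17 and −0.13.

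**Figure D4:**
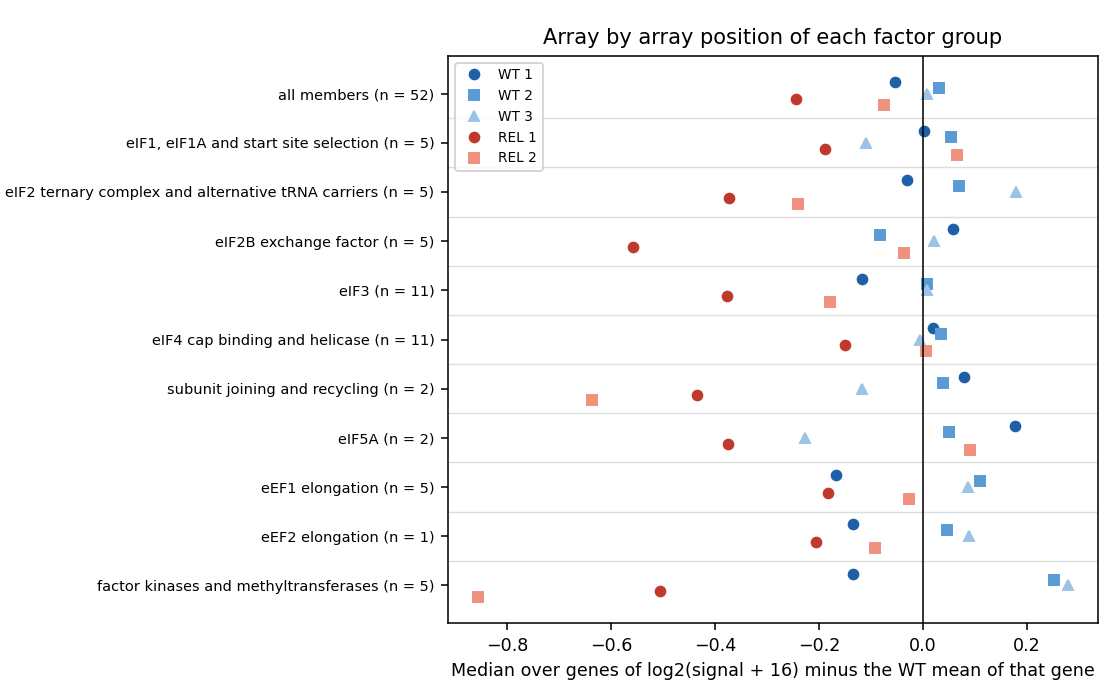
Median over the genes of each factor group of the deviation from that gene's WT mean, in log2(signal + 16), for each of the 5 arrays. The horizontal axis is that median, each row is 1 group with its number of genes, blue marks are WT and red marks REL. REL 1 lies at −0.24 for all 52 genes and REL 2 at −0.08, while REL 2 lies within the WT range for eIF2B, eIF4, eIF5A, eEF1 and eEF2 and above it for the start site group.

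Different probe sets of a gene often disagreed. Of the 52 genes, 32 had 2 or more probe sets above the floor, and in 18 of these at least 1 pointed against the probe set used, the one with the highest mean. Among all 122 member probe sets above the floor, 82 had a difference below 0 and 40 above.

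Other genes that act on these factors were taken from a fixed list of 51, of which 46 were measured. At an unadjusted p under 0.05, 1 was lower (background 4.99%) and 2 were higher (background 3.24%). These shares of 46 are near or under the background, none passed over all genes, and the median was −0.13. The 2 higher genes encode kinases that phosphorylate eIF2. Eif2ak1, the haem-regulated kinase, had signals of 1692, 1623 and 2046 in WT against 3116 and 2774 in REL. The groups did not overlap, at 0.72 (SE 0.23, limma adjusted p = 0.436), and 2 of its other 3 probe sets above the floor lay below 0. Eif2ak3, the kinase of the endoplasmic reticulum, had 1987, 1705 and 1586 in WT against 2851 and 2776 in REL. It was at 0.68 (SE 0.23, limma adjusted p = 0.458), again without overlap, and its other 2 probe sets gave 0.18 and 0.30. The other eIF2 kinase genes overlapped. Eif2ak4, the kinase that senses uncharged tRNA, gave 823, 381 and 600 in WT against 632 and 1425 in REL (0.71, SE 0.48), with 1.29 without REL replicate 1 and 0.14 without REL replicate 2. Eif2ak2, the kinase that senses double-stranded RNA, gave 565, 519 and 366 in WT against 1570 and 198 in REL (0.25, SE 0.73), with −1.20 without REL replicate 1 and 1.69 without REL replicate 2.

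Atf4, whose messenger RNA is translated more when eIF2 is phosphorylated, was at 0.15 (SE 0.16), with 4274, 4924 and 4805 in WT against 5133 and 5244 in REL. Its REL arrays lay above the WT arrays by less than the spread within WT. The other Atf4 probe set above the floor overlapped, with 2478, 2729 and 2813 in WT against 3441 and 2029 in REL (−0.01). Eif4ebp1, for an inhibitor of eIF4E that mTORC1 phosphorylates, had signals of 888, 650 and 1135 in WT against 389 and 398 in REL. The groups were apart, at −1.11 (SE 0.40, limma adjusted p = 0.486), and the other 2 probe sets gave 0.02 and −0.57. Eif4ebp2, the related inhibitor, gave 4397, 9314 and 7989 in WT against 5949 and 7492 in REL, which overlapped (−0.05, SE 0.28). Mitochondrial translation factors had a median of −0.49 over 9 genes, 7 below 0, and the termination and recycling genes −0.19 over 6, all below 0, with none at an unadjusted p under 0.05 in either list.

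**Figure D5:**
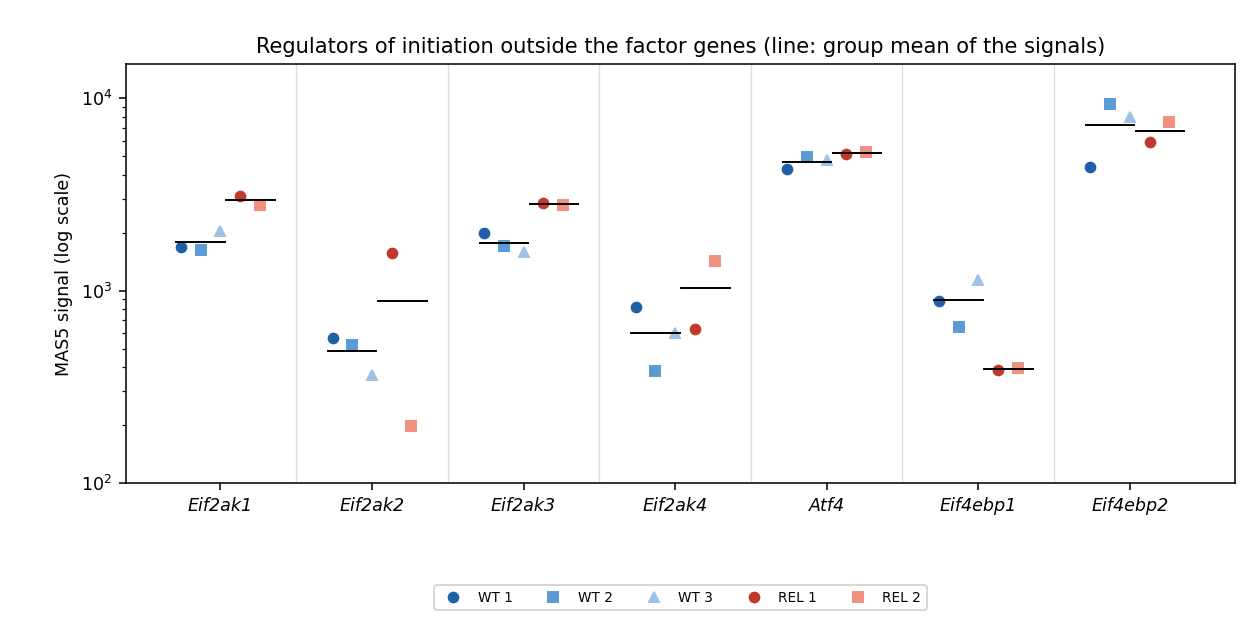
MAS5 signal on each array, on a log axis, of the eIF2 kinase genes Eif2ak1 to Eif2ak4, of Atf4 and of the eIF4E inhibitor genes Eif4ebp1 and Eif4ebp2, with WT 1 to 3 in blue, REL 1 and 2 in red and group means of the signals as black lines. The REL points lie above all WT points for Eif2ak1, Eif2ak3 and Atf4 and below them for Eif4ebp1.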

How the data were processed

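The values are signal intensities on a linear scale, deposited by the authors in a single table of 5 Affymetrix arrays (3 WT, 2 REL) and 45101 probe sets. The submitters' processing notes name MAS5; its settings were not stated. Per the labels' protocols, cDNA was amplified before biotin labelling. MAS5 works on each array separately, so dim signals scatter widely. Here signals became log2(signal + 16), which understates changes of dim genes. Probe sets with 1 symbol were used (34958). The 40% of all probe sets with the lowest mean log2 signal were dropped (below a signal of about 23.1, called the floor), and each gene was represented by its highest remaining probe set. The test was limma 3.58.1 (R 4.3.3) with a mean-variance trend and no covariate, on 3 residual and 6.84 prior degrees of freedom, two-sided, with Benjamini-Hochberg adjustment over 12082 genes. Intervals are limma's 95%. The code was tested on simulated data.

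The members and lists were chosen with earlier results of these data known. The rule for genes given array by array took, in each complex of 3 or more, the highest in mean signal and the 2 of smallest p, all genes of smaller complexes, all at an unadjusted p under 0.05, and fixed paralogue sets. Eif3l, Eif3b, Eif2a and Eef2k were added to these after their values were seen. Eif1, Eif2s1, Eif3g and Eif4g1 are not analysed here. The alternatives changed the pseudocount (1 or 64), the filter (none or 60%), the scaling (quantile or by array medians), the choice of probe set (mean of those above the floor), the trend (none) and the replicate number (as a block), or left out an array. A version of the last that keeps the original choice of probe sets was added after seeing the data.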

Additional observations from a re-analysis of the deposited data

How the results depend on the processing

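No translation factor gene passed the adjusted threshold under any of the 14 planned and 5 added alternatives. The median over all 52 genes stayed below 0 throughout, and it was −0.042 with median-centred arrays and −0.24 to −0.075 when an array was left out. Of the 35 factor genes that the naming rule took, 19 kept their sign under every alternative and 16 changed it at least once. The cause of each change was not tested.

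Median centring shifts all genes of an array by the same amount, and the median over all genes went from −0.07 to 0.07. The distance of each gene and group from that median did not change. Median centring gave medians of 0.12 for the start site group, −0.19 for eIF2, −0.047 for eIF3, 0.065 for eIF4, −0.40 for joining, 0.012 for eEF1 and −0.014 for eEF2. It left 0 genes lower at an unadjusted p under 0.05 (background 2.73%). It turned Eef1a1 (0.080), Eef1b2 (0.012), Eif1ax (0.12), Eif2s3x (0.11), Eif4a3 (0.053), Eif4g2 (0.065), Eif5a (0.055) and Eif4ebp2 (0.090). Quantile normalization gave −0.076 for eIF3 and 0.096 for eIF4, and turned Eef1a1 (0.034), Eif1ax (0.079), Eif2s3x (0.022), Eif4a3 (0.096), Eif4g2 (0.0079), Eif5a (0.023) and Eif4ebp2 (0.053). Averaging each gene's probe sets gave −0.18 for eIF2 and −0.11 for joining, and turned Eif2s2 (0.25), Eif4e2 (0.20), Eif4e3 (0.52), Eif4g3 (−0.10), Eif4h (−0.14), Eif5a (0.11), Eif6 (0.14), Eif2ak2 (−0.35) and Eif4ebp2 (0.067). A pseudocount of 1 gave 0.018 for eIF4, 1 gene higher at an unadjusted p under 0.05 (background 3.07%), and 2.31 for Eif4e3. Leaving out 60% of probe sets gave 0.018 for eIF4. Without the trend 1 gene was lower at an unadjusted p under 0.05 (background 4.69%).

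With the replicate number as a block, 9 genes were lower (background 4.40%) and 1 higher (background 3.09%) at an unadjusted p under 0.05. Replicate number 3 exists only in WT, so WT replicate 3 adds nothing to the difference in this fit. The fit had 1 residual and 21.8 prior degrees of freedom, so its p-values rest mostly on the prior. Leaving out WT replicate 3 with the original probe sets gave 2 genes lower (background 3.19%). With the block the median over all 52 was −0.15 and the start site median −0.14, the same as in that fit. Eif4a1 was then at −0.00097 and Eif4ebp2 at 0.061. The labels give no pairing. The deviations of same-numbered arrays correlated at −0.04 and −0.02. With 2 REL arrays their deviations mirror each other, so these values cannot tell whether arrays were paired.

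Leaving out each array gave medians of −0.19 to 0.065 for the start site group, −0.56 to −0.037 for eIF2B, −0.38 to −0.11 for eIF3, −0.15 to 0.0063 for eIF4, −0.37 to 0.091 for eIF5A, −0.22 to −0.026 for eEF1, −0.22 to −0.093 for eEF2, −0.37 to −0.24 for eIF2, −0.64 to −0.43 for joining and −0.86 to −0.37 for the kinases and methyltransferases. Without WT replicate 1, 2 or 3, 6, 3 and 3 genes were lower at an unadjusted p under 0.05 (background 4.65%, 3.89% and 3.17%). In the same order 1, 0 and 1 were higher (background 2.95%, 2.48% and 2.77%). The ranges that follow cover every array left out in turn. Values ran from −0.18 to 0.071 for Eef1a1, −0.14 to 0.13 for Eif1ax, −0.28 to 0.24 for Eif2s3x, −0.089 to 3.40 for Eif2s3y, −0.056 to 0.37 for Eif4a1, −0.41 to 0.25 for Eif4a3, −1.42 to 1.89 for Eif4e3 and −0.18 to 0.044 for Eif4g2. They ran from −0.22 to 0.72 for Eif4g3, −0.23 to 0.27 for Eif4h, −0.64 to 0.23 for Eif5a2, −1.20 to 1.69 for Eif2ak2 and −0.37 to 0.17 for Eif4ebp2. The lone array left in REL is then assumed to vary like WT. Probe sets near the floor, such as those used for Eif4a3 and Eif4e3, are limited by signal over background.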

Other observations

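Probe sets with several symbols were outside the rule, and 7 of them carried a translation factor symbol. The probe set shared by Gm5576 and Eif4a3 gave 4482, 5512 and 5352 in WT against 4047 and 5141 in REL, a difference of −0.16 on the log2(signal + 16) scale with overlapping arrays. The brighter one shared by Gm29753 and Eef1g, whose product anchors the eEF1 exchange complex, had 12094, 14395 and 13235 in WT against 10794 and 12813 in REL (−0.17), also with overlap. Eif3j1 and Eif3j2 shared 3 probe sets. They are copies of the gene for a loosely bound eIF3 subunit. The brightest had 3334, 3802 and 3029 in WT against 2361 and 2659 in REL (−0.43), and another 644, 231 and 332 in WT against 209 and 230 in REL (−0.71), in each case without overlap. The remaining one gave −0.55 with overlap. These differences were not tested.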
